A study of Mus musculus with 6 samples.

Results

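The genes described here handle phosphate and pyrophosphate in mineralizing tissue, and they were measured in 2 fractions of bone marrow sorted from the same mice. The list held 10 genes, namely Alpl, Enpp1, Ank, Phospho1, Slc20a1, Slc20a2, Smpd3, Phex, Mgp and Dmp1, and its probe sets were taken by gene name. A probe set was taken when the array annotation gave it exactly 1 gene symbol and that symbol was in the list, which gave 16 of the 34945 probe sets with 1 symbol and covered 8 of the 10 genes. No probe set carried Enpp1 as its 1 symbol, and the probe set annotated to Phospho1 also carried a second symbol, so neither gene is described.

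The Grem1+ fraction (3 arrays) was sorted for Grem1 from digested marrow of Grem1;TdTomato reporter mice on a C57BL/6J background, aged 6 to 8 weeks and given tamoxifen by mouth. The Grem1- fraction (3 arrays) came from the same 3 mice, had not recombined the reporter, and lacked the surface antigens CD45, CD31 and Ter-119, which mark blood, endothelial and erythroid cells. The labels state that gate for the Grem1- fraction alone, and every mouse carried the reporter and received tamoxifen. The sources used here do not name the element that drives the recombinase. RNA was amplified before hybridisation to Affymetrix arrays, and values are log2 expression per probe set, for which the submitters' processing notes name GCRMA.

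Mineral in bone and cartilage is calcium phosphate, and its deposition depends on the balance between free phosphate and pyrophosphate, which blocks crystal growth. Alkaline phosphatase (Alpl) cleaves pyrophosphate, ENPP1 makes it from ATP, and the membrane protein ANK moves it out of the cell. PHOSPHO1 frees phosphate from phosphocholine inside matrix vesicles, SMPD3 releases phosphocholine from sphingomyelin, and SLC20A1 and SLC20A2 carry phosphate into the cell with sodium. Matrix Gla protein (Mgp) inhibits calcification of cartilage and arteries, and PHEX and DMP1 are known from osteocytes, where loss of either raises the phosphate-wasting hormone FGF23.

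Of these genes, Smpd3, Mgp, Alpl and Slc20a1 were higher in the Grem1+ fraction. Smpd3 was higher by 4.24 (SE 0.34) on the log2 scale on 1 of its 3 probe sets, Mgp by 3.35 (SE 0.39) and Alpl by 2.96 (SE 0.43), and 2 of the 3 Slc20a1 probe sets by 1.54 (SE 0.30) and 1.40 (SE 0.30). No member was lower past the threshold. Ank and Phex had every Grem1+ array above every Grem1- array without passing the test, and Slc20a2 and Dmp1 overlapped between the fractions.

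Probe sets entered the test if 3 or more of the 6 arrays exceeded log2 4, an arbitrary limit that no detection measurement backs. The test was limma with the mouse as a block, and adjusted p-values are Benjamini-Hochberg values over all 18157 tested probe sets with a threshold of 0.05. Of the 16 member probe sets 12 were tested, and 5 of them, from 4 genes, were higher in Grem1+ and 0 lower, where 10.1% of all tested probe sets were higher and 7.76% lower (17.8% in either direction). The median log2 difference, Grem1+ minus Grem1-, was 2.18 over the 12 and -0.01 over all tested. These 12 were not all members, the probe sets of 1 gene share its transcripts, and 1 of Phex entered through its Grem1+ arrays alone. Counting all 16 member probe sets with no filter, 3 were higher, against 3.13% of all probe sets with 1 symbol, and these belonged to Smpd3, Mgp and Slc20a1.

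Groups did not overlap, with Grem1+ higher, for 11 of the 16 member probe sets, where 17.2% of all probe sets with 1 symbol showed this. Among those tested it was 8 of 12, against 21.6% of all tested. The test rested on all 3 mice. With any mouse left out and the block kept, limma called 0 of all 18157 tested probe sets, the members among them. Of the 12 tested member probe sets, 8, 7 and 8 had an unadjusted p under 0.05 without mouse 1, 2 and 3. Among all tested, 5158, 5085 and 4967 did. Without the block, 1 (Smpd3) was called without mouse 1, 2 (Smpd3 and Mgp) without mouse 2 and 3 (Smpd3, Alpl and Ank) without mouse 3. Among all tested, 1114, 1176 and 1122 were called higher and 761, 751 and 796 lower in these fits.

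**Figure D1:**
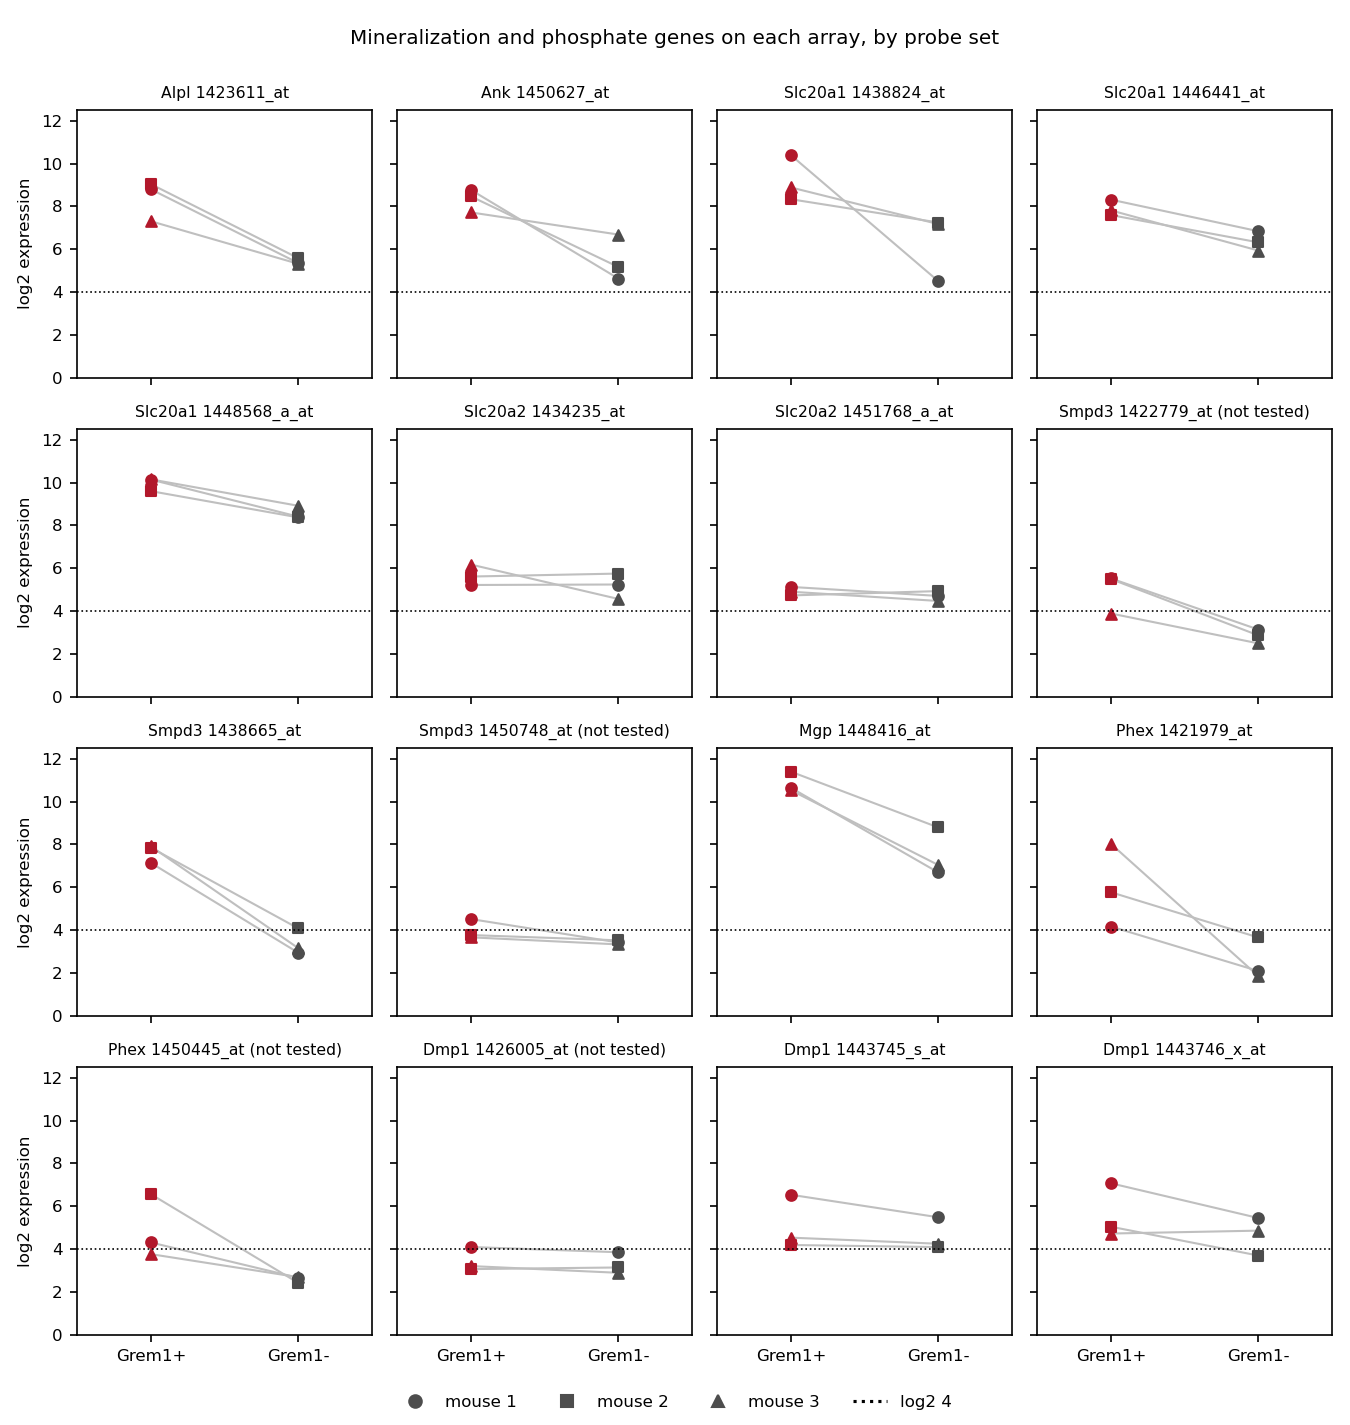
Log2 expression of each of the 16 probe sets (vertical axis) in Grem1+ (left, red) and Grem1- (right, grey), with a line joining the fractions of a mouse and a marker shape for each of the 3 mice. The dotted line is log2 4, and the 4 probe sets above log2 4 on fewer than 3 arrays are titled as not tested. Smpd3 1438665_at, Mgp and Alpl show the groups apart, and both Slc20a2 probe sets show them overlapping.

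The arrays were compared before the members. Array medians lay between 3.74 and 3.81, and correlations across probe sets were 0.902 to 0.922 among Grem1+ arrays, 0.939 to 0.946 among Grem1- arrays and 0.793 to 0.846 between fractions. The labels call all animals male, but in mouse 3 the X-inactivation transcript Xist stood at 10.60 in Grem1+ and 11.04 in Grem1-, while the same probe set reached at most 2.99 elsewhere, so values without mouse 3 are given with the results. The Gapdh control probes at the 3' end exceeded those at the 5' end, a gap that widens with RNA breakdown, by 3.58 ± 0.51 in Grem1+ and by 2.66 ± 0.34 in Grem1- (SD, n = 3 each). For the actin control probes the same gap was 0.09 ± 0.11 in Grem1+ and 0.16 ± 0.02 in Grem1- (SD, n = 3 each). The part of the Gapdh gap in the differences was not tested. Grem1 itself stood at 4.49, 4.14 and 8.61 in the Grem1+ arrays of mice 1, 2 and 3, against 3.69, 3.75 and 3.70 in Grem1-.

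Marker lists moved with the fractions, and their part in the values that follow was not tested. The lists are not independent of those values. The osteocyte list holds the members Dmp1 and Phex. The osteoblast list holds Ibsp, Col1a1 and Pth1r, and the chondrocyte list Col10a1, which are described again below as related genes. The 7 chondrocyte genes had medians of 11.02, 10.96 and 10.99 in Grem1+ for mice 1, 2 and 3, against 6.91, 8.10 and 7.25 in Grem1-. Col2a1 was bright in both fractions, at 11.68, 12.58 and 11.85 in Grem1+ against 11.35, 11.84 and 11.37 in Grem1-. Col9a1 lay between 8.95 and 9.49 in Grem1-, and the other chondrocyte genes reached at most 8.47 there. The 4 osteoblast genes named on the array, of 7 listed, had medians of 9.76, 10.17 and 8.61 in Grem1+, against 5.11, 5.32 and 6.47 in Grem1-. The pan-haematopoietic list of 6 genes had medians of 8.14, 8.16 and 10.26 in Grem1+, against 11.97, 11.90 and 12.07 in Grem1-, although Grem1- was gated against CD45. Ptprc, the CD45 gene, stood at 7.29, 9.61 and 10.56 in Grem1+, against 12.13, 11.78 and 12.37 in Grem1-, on its probe set with the highest mean. Its second probe set stood at 2.53, 3.30 and 3.71 in Grem1+, against 9.38, 8.37 and 8.81 in Grem1-. The 8 neutrophil genes summed to log2 11.71 to 13.53 in Grem1+ and to 14.61 to 14.67 in Grem1-, and 0 of them were below log2 4 on all arrays of a fraction. Neutrophils are a known source of Alpl transcript, and the part of these cells in the member values was not tested. All 5 endothelial genes were below log2 4 on every Grem1+ array and 3 of them on every Grem1- array. The exceptions in Grem1- were Pecam1, the CD31 gene, at 5.25, 4.23 and 4.91, and Tek at 4.87, 7.14 and 4.07. Grem1- was gated against CD31 as well. The smooth muscle list of 4 genes had medians of 5.69 to 6.46 in Grem1+ and 5.18 to 6.17 in Grem1-. The erythroid list had 5 of 7 genes on the array, with medians of 3.38 to 3.46 in Grem1+ and 3.85 to 4.70 in Grem1-. Its genes summed to log2 5.63 to 6.79 in Grem1+ and to 10.34 to 10.44 in Grem1-. Hemgn, a nuclear protein of erythroid cells, made up most of the Grem1- sum, at 2.26 to 3.14 in Grem1+ against 10.20 to 10.33 in Grem1-. Of the others, Hba-a1 lay between 2.87 and 3.22 on all arrays, and Alas2 and Epor reached at most 4.70. Klf1 stood at 6.13, 3.52 and 3.38 in Grem1+, against 6.15, 5.71 and 5.89 in Grem1-. In such mixed fractions, fewer cells of a type and less RNA per cell cannot be told apart.

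**Figure D2:**
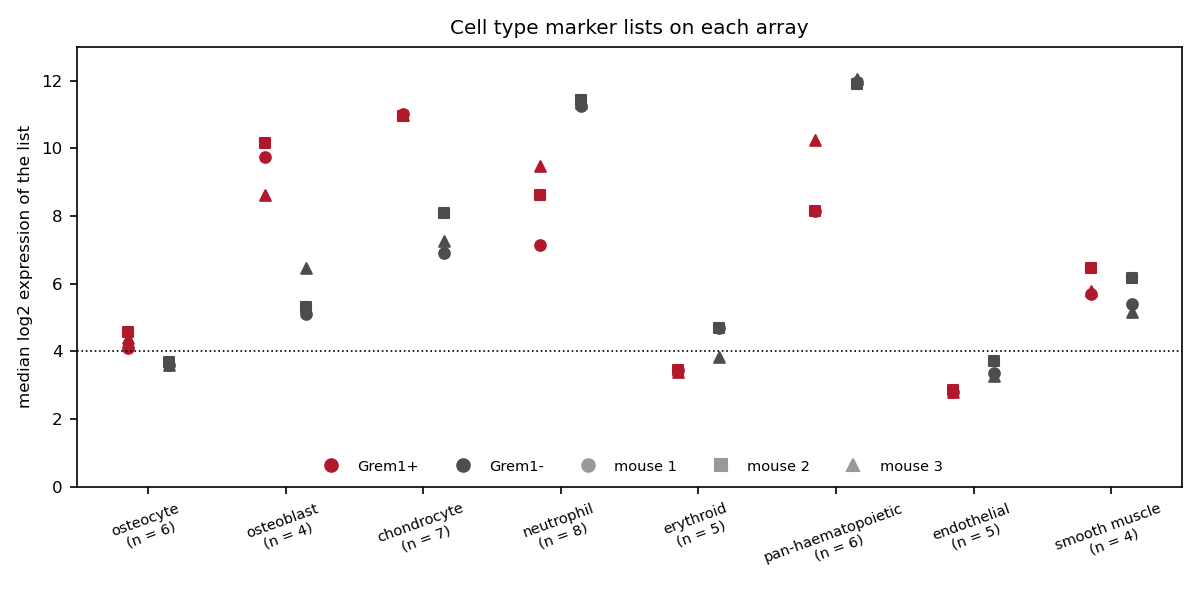
Median log2 expression of each cell type marker list (vertical axis) on each array, with Grem1+ in red on the left and Grem1- in grey on the right of each list, a marker shape for each mouse, and n the number of listed genes on the array. Chondrocyte and osteoblast medians are higher in all 3 Grem1+ arrays, pan-haematopoietic and neutrophil medians are lower, and mouse 3 has the highest haematopoietic median among the Grem1+ arrays at 10.26.

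Alpl encodes tissue-nonspecific alkaline phosphatase, the enzyme that removes pyrophosphate. Its 1 probe set stood at 8.79, 9.03 and 7.30 in Grem1+ for mice 1, 2 and 3, against 5.35, 5.58 and 5.31 in Grem1-. All Grem1+ arrays lay above all Grem1- arrays, and mouse 3 was the lowest of the Grem1+ arrays while the Grem1- arrays lay close together. The difference of 2.96 (SE 0.43) is 7.8-fold and passed the threshold (limma adjusted p = 0.0223). The within-mouse differences were 3.44, 3.46 and 1.99. The mean difference was 3.45 without mouse 3. The limma adjusted p was then 0.0637 with the block, where no tested probe set passed, and 0.0199 without it. With all mice and no filter on dim probe sets the adjusted p was 0.0533. In the Grem1+ array of mouse 3 the osteoblast median was also the lowest of the Grem1+ arrays and the pan-haematopoietic median the highest. The osteoblast genes split there. Col1a1 (9.20) and Pth1r (8.03) were the lowest of the Grem1+ arrays, while Sp7 (6.55) and Ibsp (11.47) were the highest. The part of both lists in the Alpl value was not tested.

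Ank encodes the multipass membrane protein through which pyrophosphate leaves the cell, and loss of it in mice brings ectopic mineral in joints. Its probe set stood at 8.77, 8.46 and 7.71 in Grem1+ and at 4.63, 5.17 and 6.68 in Grem1-. The fractions did not overlap, and they lay closest in mouse 3, which had the lowest Grem1+ and the highest Grem1- value. Their difference, 2.82 (SE 0.69), missed the threshold (limma adjusted p = 0.0620). The within-mouse differences were 4.14, 3.30 and 1.03. Without mouse 3 the difference was 3.72. The limma adjusted p was then 0.0662 with the block, where no tested probe set passed, and 0.0200 without it. With all mice and no replicate block Ank passed (limma adjusted p = 0.0187), and it passed as well with a stricter filter of log2 above 6 on at least 3 arrays (adjusted p = 0.0404).

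The sodium-phosphate cotransporters of the SLC20 family gave different values. Slc20a1, also called Pit1, had 3 probe sets, each with all Grem1+ arrays above all Grem1- arrays. Probe set 1448568_a_at stood at 10.14, 9.60 and 10.15 in Grem1+ and at 8.41, 8.37 and 8.91 in Grem1-, a difference of 1.40 (SE 0.30, limma adjusted p = 0.0465). Probe set 1446441_at stood at 8.31, 7.59 and 7.81 in Grem1+ and at 6.84, 6.32 and 5.93 in Grem1-, a difference of 1.54 (SE 0.30, limma adjusted p = 0.0383). Both lie just within the threshold, at 2.64-fold and 2.91-fold. With no filter the first lost its call (adjusted p = 0.0528), and the second lost it with a trended, robust variance prior (adjusted p = 0.0639). Without mouse 3 they stood at 1.48 and 1.37, and neither passed without the block. With the block no tested probe set passed without mouse 3. The third, 1438824_at, stood at 10.39, 8.33 and 8.88 in Grem1+ and at 4.50, 7.24 and 7.17 in Grem1-. Mouse 1 set its spread, with a difference of 5.89 against 1.09 and 1.71 in mice 2 and 3, and the mean of 2.89 (SE 1.06) missed the threshold (limma adjusted p = 0.141). Without mouse 1 it stood at 1.40.

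Slc20a2, also called Pit2, is the family member whose loss in humans brings calcification in the brain. Probe set 1434235_at stood at 5.21, 5.61 and 6.17 in Grem1+ and at 5.24, 5.75 and 4.56 in Grem1-. The fractions overlapped, with mouse 3 alone showing a difference above 1, at 1.61. The mean difference, 0.48 (SE 0.47), missed the threshold (limma adjusted p = 0.535), and leaving out mouse 3 gave -0.08. Probe set 1451768_a_at stood at 5.12, 4.73 and 4.90 in Grem1+ and at 4.70, 4.93 and 4.47 in Grem1-, which overlapped as well, with a difference of 0.22 (SE 0.31, limma adjusted p = 0.677). Whether Slc20a1 and Slc20a2 differ from each other in this respect was not tested.

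Smpd3 encodes neutral sphingomyelinase 2, and mice that lack its activity have undermineralized bone and cartilage. Probe set 1438665_at stood at 7.13, 7.84 and 7.91 in Grem1+ and at 2.94, 4.07 and 3.15 in Grem1-. All Grem1+ arrays lay far above the Grem1- arrays, of which 1 was above log2 4, and the within-mouse differences were 4.20, 3.77 and 4.76. The difference of 4.24 (SE 0.34) was past the threshold (limma adjusted p = 0.00992), and with values below log2 4 set to 4 it was 3.60. Without mouse 3 the difference was 3.98. The limma adjusted p was then 0.0637 with the block, where no tested probe set passed, and 0.0294 without it. The other 2 probe sets were too dim to be tested. Of these, 1422779_at stood at 5.52, 5.49 and 3.88 in Grem1+ and at 3.13, 2.86 and 2.49 in Grem1-, and 1450748_at at 4.51, 3.76 and 3.66 in Grem1+ and at 3.42, 3.52 and 3.33 in Grem1-. Neither overlapped between fractions, their differences were 2.14 and 0.56, and with no filter neither passed (limma adjusted p = 0.0617 and 0.316).

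Mgp encodes a small protein carrying vitamin K dependent Gla residues, made by cartilage and vascular smooth muscle, and mice without it calcify both tissues. Its probe set stood at 10.64, 11.40 and 10.53 in Grem1+ and at 6.69, 8.79 and 7.04 in Grem1-. The fractions did not overlap, and mouse 2 had the highest value in both. The difference of 3.35 (SE 0.39) is 10.2-fold (limma adjusted p = 0.0155), with within-mouse differences of 3.96, 2.60 and 3.49. It kept its call with no filter (limma adjusted p = 0.0357). Without mouse 3 the difference was 3.28 and did not pass without the block (adjusted p = 0.0833). With the block (adjusted p = 0.0820) no tested probe set passed without mouse 3. Mouse 2 also had the highest smooth muscle median in both fractions, at 6.46 in Grem1+ and 6.17 in Grem1-, and the highest chondrocyte median in Grem1-, at 8.10. In Grem1+ the chondrocyte medians lay close together, at 11.02, 10.96 and 10.99 for mice 1, 2 and 3. Summed, the chondrocyte genes were highest in mouse 2 there, at log2 14.25 against 13.84 and 13.75 in mice 1 and 3. The part of the smooth muscle and chondrocyte lists in the Mgp values was not tested.

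Phex, an X-linked gene that encodes an endopeptidase of osteoblasts and osteocytes, was below log2 4 on every Grem1- array. Probe set 1421979_at stood at 4.16, 5.76 and 8.02 in Grem1+ and at 2.09, 3.65 and 1.85 in Grem1-. The Grem1+ values ran from 4.16 in mouse 1 to 8.02 in mouse 3, the mouse with Xist, and lay above all Grem1- values. With values below log2 4 set to 4 the difference was 1.98, and as deposited it was 3.46 (SE 0.97) and missed the threshold (limma adjusted p = 0.0813). Without mouse 3 the deposited difference was 2.10. The second probe set, 1450445_at, had 2 arrays above log2 4 and was not tested. It stood at 4.31, 6.56 and 3.76 in Grem1+ and at 2.66, 2.42 and 2.69 in Grem1-, a difference of 2.29, or 0.96 with values below log2 4 set to 4. Here mouse 2 was the highest and mouse 3 the lowest of the Grem1+ arrays, the reverse of their order on the first probe set.

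Dmp1 encodes an acidic phosphoprotein of the bone matrix, made chiefly by osteocytes. Probe set 1443746_x_at stood at 7.07, 5.04 and 4.73 in Grem1+ and at 5.45, 3.70 and 4.86 in Grem1-, a difference of 0.94 (SE 0.46, limma adjusted p = 0.235). Probe set 1443745_s_at stood at 6.54, 4.19 and 4.53 in Grem1+ and at 5.48, 4.09 and 4.25 in Grem1-, a difference of 0.48 (SE 0.34, limma adjusted p = 0.393). The fractions overlapped on both, and mouse 1 was the highest in either fraction. On the first, the difference was 1.48 without mouse 3 and 0.61 without mouse 1. The names of both mark probes that may match other transcripts. The third, 1426005_at, lay between 2.89 and 4.09 on all arrays and was not tested. Of the other osteocyte markers, Mepe and Fgf23 were below log2 4 on all 6 arrays, Sost lay between 3.90 and 4.10, and Pdpn, which other stromal cells also express, stood at 8.35, 8.88 and 9.04 in Grem1+ and at 6.82, 7.51 and 4.36 in Grem1-.

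**Figure D3:**
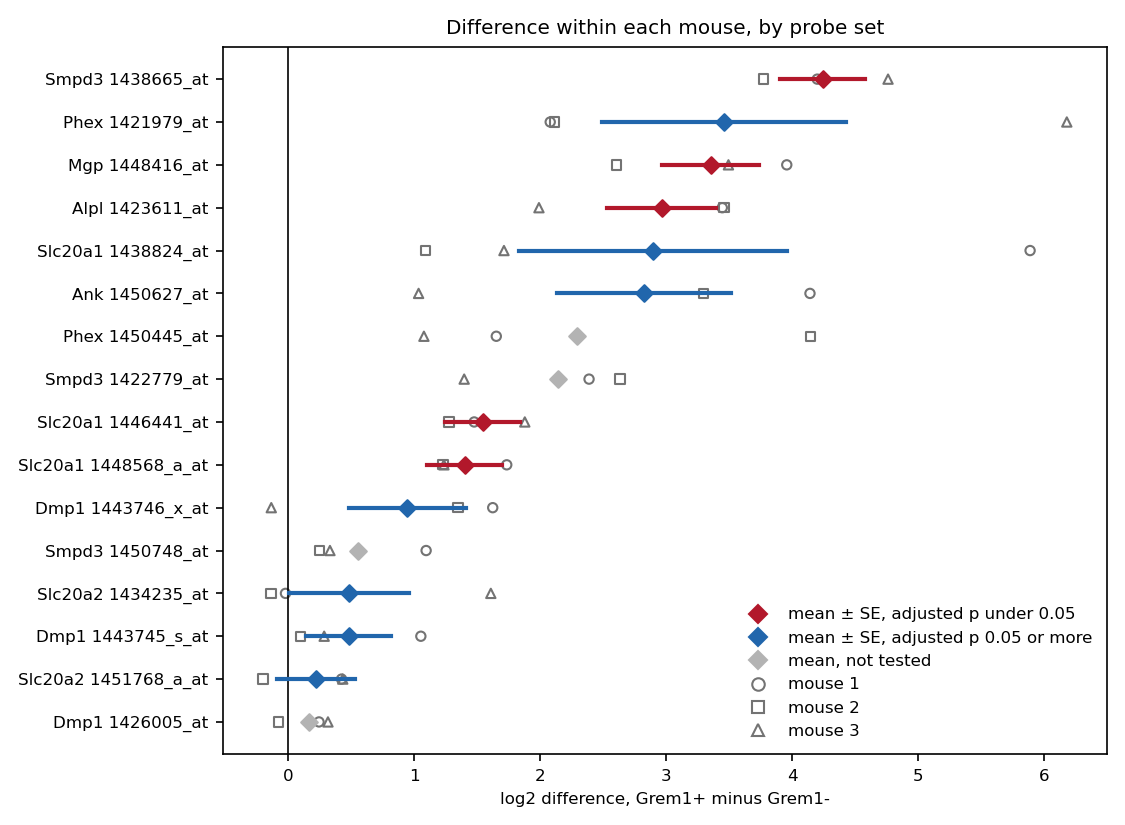
Log2 difference, Grem1+ minus Grem1-, for each of the 16 probe sets (rows), with open symbols for the 3 mice and a diamond for the mean, and bars of ± SE from limma for the 12 tested. Red marks the 5 with an adjusted p under 0.05, blue the other tested ones and grey the 4 not tested. Smpd3 1438665_at leads at 4.24, and mouse 3 stands apart for Phex 1421979_at (6.18) and mouse 1 for Slc20a1 1438824_at (5.89).

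Set among all 18157 tested probe sets, the Smpd3 difference of 4.24 was above 97.7% of them and that of Mgp above 95.8%. With values below log2 4 set to 4 on all arrays, the Smpd3 difference was 3.60 and above 97.2%, and that of Phex, below log2 4 on every Grem1- array, was 1.98 and above 90.9%. Alpl stood above 94.5%, and Ank above 94%. The 3 probe sets of Slc20a1 stood above 84.4 to 94.2%, those of Dmp1 above 67.9 and 78% and those of Slc20a2 above 59.8 and 68%. Ank missed the threshold from its place in this order, with within-mouse differences from 1.03 to 4.14.

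**Figure D4:**
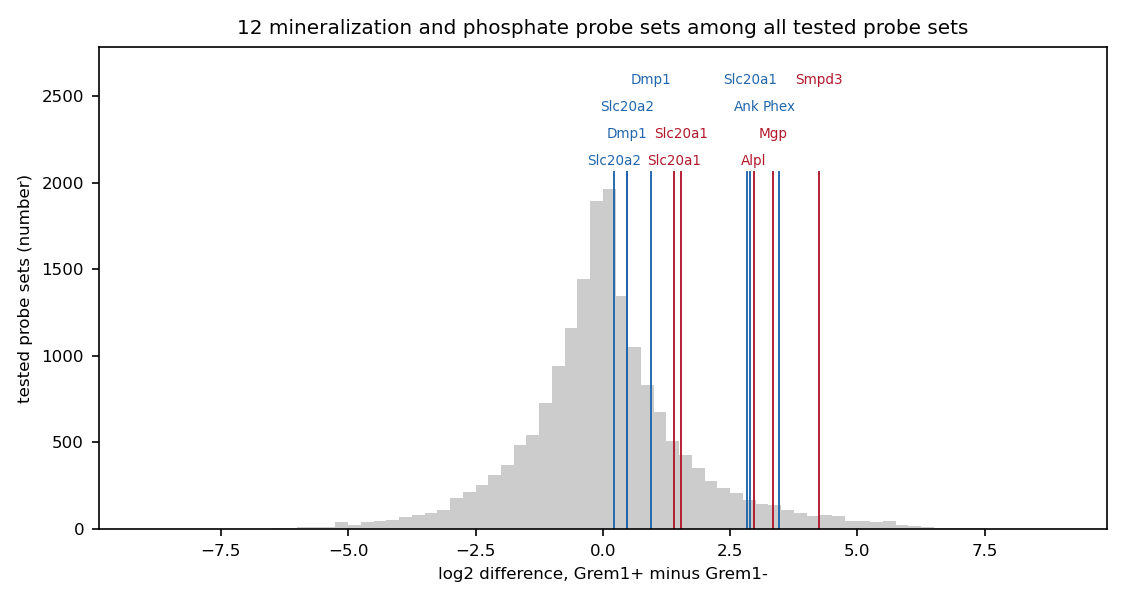
Number of tested probe sets (vertical axis) by log2 difference, Grem1+ minus Grem1- (horizontal axis, bins of 0.25), with a line for each of the 12 tested member probe sets, red where the adjusted p was under 0.05 and blue otherwise. All 12 lie above 0, and they run from 0.22 for Slc20a2 to 4.24 for Smpd3. The Phex line at 3.46 is the difference as deposited.

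Promoter sequence is shown for the called genes Alpl and Slc20a1, both higher in the Grem1+ fraction, from the promoter table used here, made from RefSeq (GRCm38.p6). That table gave 7 of the 10 genes, and Smpd3, Mgp and Slc20a2 are not shown here. Each window of 300 bases runs from 250 before to 50 after the outermost annotated start of the gene, and lies at chr4:137796335-137796634 on the minus strand for Alpl and at chr2:129198523-129198822 on the plus strand for Slc20a1. Capitals mark matches, on either strand, to a TATA box (TATAAA), a RUNX core (TGTGGT), an AP-1 site (TGANTCA), a GC box (GGGCGG) or a CRE (TGACGTCA).
Alpl: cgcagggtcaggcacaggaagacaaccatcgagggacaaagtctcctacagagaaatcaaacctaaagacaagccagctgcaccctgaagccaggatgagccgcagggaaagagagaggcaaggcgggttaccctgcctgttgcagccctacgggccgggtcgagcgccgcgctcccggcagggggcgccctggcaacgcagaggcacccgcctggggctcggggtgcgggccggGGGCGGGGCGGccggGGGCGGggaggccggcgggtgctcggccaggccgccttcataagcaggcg
Slc20a1: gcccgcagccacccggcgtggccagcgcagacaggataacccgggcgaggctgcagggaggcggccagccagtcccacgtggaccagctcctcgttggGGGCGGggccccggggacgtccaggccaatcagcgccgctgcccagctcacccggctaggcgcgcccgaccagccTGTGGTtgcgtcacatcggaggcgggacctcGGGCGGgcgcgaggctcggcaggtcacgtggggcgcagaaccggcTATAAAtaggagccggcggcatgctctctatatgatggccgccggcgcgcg
The Alpl window held 3 GC boxes, the first pair overlapping by 1 base, and no match to the others. With the annotated start as base 1 and the base before it as -1, these began at -15, -10 and 1. The Slc20a1 window held 2 GC boxes, beginning at -152 and -46, 1 RUNX core at -77 and 1 match to the TATA box letters. That last match began at -1 and so lay across the annotated start. Of all 32851 promoter windows, 35.7% held a GC box, 16.8% a RUNX core, 13.6% a TATA box, 7.81% an AP-1 site and 1.79% a CRE. The GC content was 70.0% for Alpl and 73.0% for Slc20a1. A match is a description of the letters, and no binding was measured.

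Other genes of phosphate and mineral metabolism were taken as 5 lists of 45 genes, of which 41 were on the array and 29 had a tested probe set. Of 60 tested probe sets 19 were higher and 2 lower in Grem1+, with a median difference of 1.07, against -0.01 over all tested, where 10.1% were higher and 7.76% lower. Of the 19 higher probe sets 2, of Panx3 (1456073_s_at) and Fgfr1 (1436551_at), had every Grem1- array below log2 4 and so entered through Grem1+ alone, as did 4 of the 60 tested, while 1 entered through Grem1- alone. The genes named below are shown by their probe set with the highest mean unless said otherwise.

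In phosphate transport and its hormones, 5 of 11 genes were tested. Of their 15 tested probe sets 4 were higher and 0 lower, with a median of 0.13. Among all tested, 10.1% were higher and 7.76% lower. Pth1r, the parathyroid hormone receptor, stood at 8.62, 9.90 and 8.03 in Grem1+ and at 2.89, 4.20 and 4.02 in Grem1-, a difference of 5.14 (SE 0.47, limma adjusted p = 0.0114). The other 3 were probe sets of Fgfr1, an FGF receptor through which FGF23 acts with Klotho, which was higher by 2.46 (SE 0.40). All 7 tested probe sets of Xpr1, the phosphate exporter, missed the threshold, with differences from -1.82 to 0.13. The sodium-phosphate transporters of kidney and gut, Slc34a1, Slc34a2 and Slc34a3, and Kl, the gene of Klotho, were below log2 4 on every array.

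For genes of extracellular pyrophosphate, ATP and adenosine, 2 of 10 tested probe sets were higher and 1 lower, with a median of 0.70. Of all tested probe sets, 10.1% were higher and 7.76% lower. Panx3, a pannexin channel of cartilage and bone that passes ATP, was at least 121-fold higher on probe set 1456073_s_at, where every Grem1- array was below log2 4. A second tested Panx3 probe set differed by 1.97 and did not pass (limma adjusted p = 0.161). Nt5e, the gene of CD73, which makes adenosine from AMP, was higher by 2.35 (SE 0.35, limma adjusted p = 0.0228) on a probe set chosen after its values were seen. On the one with the highest mean the difference of 1.46 (SE 0.34) missed the threshold (limma adjusted p = 0.0545), and the third probe set differed by -0.0037 (limma adjusted p = 0.995). Entpd1, the gene of CD39, which degrades ATP and is abundant on leukocytes, was lower on 1450939_at, its probe set with the highest mean. It stood at 4.43, 6.93 and 4.46 in Grem1+ against 8.69, 8.40 and 9.35 in Grem1- (difference -3.54, SE 0.77, limma adjusted p = 0.0487). With no filter it lost its call (limma adjusted p = 0.121). Probe sets 1423326_at and 1453586_at differed by -1.58 and -2.09 and missed the threshold (limma adjusted p = 0.0518 and 0.0748). Pan-haematopoietic medians ran from 8.14 to 10.26 in Grem1+ and from 11.90 to 12.07 in Grem1-, and their part in the Entpd1 value was not tested.

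Of the mineralized matrix proteins, 4 of 10 tested probe sets were higher and 0 lower, with a median of 0.72. Among all tested, 10.1% were higher and 7.76% lower. Col10a1, the collagen of hypertrophic cartilage, differed by 4.65 (SE 0.33). Bone sialoprotein (Ibsp), which binds mineral, differed by 3.48 (SE 0.42). Sparc, a collagen-binding matrix protein, differed by 0.72 (SE 0.28) on its probe set with the highest mean and missed the threshold (limma adjusted p = 0.160). On 1416589_at, chosen after its values were seen, it was higher by 1.60 (SE 0.29, limma adjusted p = 0.0324). The type I collagen genes that make up most of bone matrix did not pass, with Col1a1 at -0.04 (SE 0.40) and -0.62 (SE 0.64) on its 2 probe sets (limma adjusted p = 0.953 and 0.552). In Grem1+ the array of mouse 3 was the lowest on both. Col1a2 stood at 0.72 (SE 0.42) and 0.42 (SE 0.30) on its 2 tested probe sets (limma adjusted p = 0.305 and 0.399).

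The list for vitamin K dependent carboxylation, the step that makes the Gla residues of MGP, holds enzymes and Gla proteins. Of its 8 tested probe sets 4 were higher and 0 lower, with a median of 1.97. Among all tested, 10.1% were higher and 7.76% lower. Vkorc1, which recycles vitamin K, stood at 10.25, 10.87 and 10.32 in Grem1+ and at 5.94, 7.24 and 5.99 in Grem1-, a difference of 4.09 (SE 0.32, limma adjusted p = 0.00992). Ggcx, the carboxylase itself, differed by 2.52 (SE 0.53, limma adjusted p = 0.0465), and its second probe set by 1.42 without passing. Ucma, another Gla protein of cartilage and not an enzyme of the step, was higher by 5.93 (SE 0.42) and 4.94 (SE 0.35). Both of these probe sets are among the 4 that were higher. Gas6 differed by 1.29 (SE 0.31) and missed the threshold (limma adjusted p = 0.0593). Vkorc1l1, the paralogue of Vkorc1, differed by -0.33 (SE 0.32) and -0.04 (SE 0.36) on its probe sets and did not pass.

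Annexins of matrix vesicles and genes that supply phosphocholine had 5 of 17 tested probe sets higher and 1 lower, with a median of 1.14. Among all tested, 10.1% were higher and 7.76% lower. The calcium-binding annexins Anxa6 and Anxa5 were higher by 1.80 (SE 0.28) and 1.54 (SE 0.28), and Slc44a1, a choline transporter, by 2.68 (SE 0.46). A second probe set of Slc44a1 was higher by 2.25 (SE 0.40), while 1454344_at differed by 1.15 and missed the threshold (limma adjusted p = 0.417). The second tested probe set of Anxa6 at 1.19 and the one of Anxa2 at 0.69 missed it as well (limma adjusted p = 0.0688 and 0.198). The probe sets of Sgms1, a sphingomyelin synthase that acts opposite to SMPD3, disagreed, with 1 higher by 2.53 (SE 0.40), 1 lower at -1.99 (SE 0.39) and 1 that did not pass. Enpp6, a choline phosphodiesterase, was below log2 4 on every array.

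Across the 6 arrays, the gene with the profile most like each member was sought among 10151 genes by Pearson correlation, each gene by its tested probe set with the highest mean. For Alpl it was Abca5 (r = 0.9997), for Mgp Nupr1 (r = 0.9985), for Ank Msantd4 (r = 0.9985) and for Slc20a1 Tmem263 (r = 0.9982). For Smpd3 it was 9630050P21Rik (r = 0.9964), for Dmp1 Wfdc1 (r = 0.9953), for Slc20a2 Bbx (r = 0.9911) and for Phex Heatr5a (r = 0.9884). Among the members themselves, Smpd3 and Mgp were the most alike pair (r = 0.967), and Dmp1 and Slc20a2 gave the lowest r (-0.332). These values describe 6 arrays that fall into 2 fractions, and no test was made of them.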

How the data were processed

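The authors deposited log2 expression values per probe set from 6 arrays, for which the submitters' processing notes name GCRMA, which models background by probe sequence before normalization and summary. The sources used here give neither version nor settings. Values between 0.798 and 14.05 showed the log2 scale. Scanner files were not analysed here.

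Gene symbols came from the platform annotation, and Entrez identifiers of 34741 of 34945 probe sets with 1 symbol matched RefSeq (GRCm38.p6), which changed 0 symbols. Probe sets with log2 above 4 on at least 3 arrays were tested with limma 3.58.1 (R 4.3.3, lmFit and eBayes, two-sided) with the mouse as a block, adjusted over 18157 probe sets. Per the design text the fractions of a mouse are matched, and the number in a title was read as the mouse. Within mice 1, 2 and 3, the 2 arrays' deviations from their group means correlated at 0.014, 0.052 and 0.031 across probe sets. The number of arrays limits the precision.

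The members and the lists were chosen with earlier results of these data known. Every member probe set was named, then up to 4 called genes of each related list, and other related genes were named after their values were seen. The test was tried on data simulated with the residual spreads of the fit. It recovered 0% of changes of log2 1, 6% of log2 2, 90% of log2 4 and 96% of log2 6. False calls numbered 5 there, and 0 where no change was put in. Missing the threshold therefore does not show that a difference of log2 1 or 2 is absent.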

Additional observations from a re-analysis of the deposited data

How the results depend on the processing

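Beyond the settings given with the results, the direction of every tested member probe set was unchanged under all alternatives run, except Slc20a2 1434235_at, which stood at -0.080 without mouse 3 with or without the replicate block and reached 0.792 without mouse 2. Leaving out a mouse while keeping the block, limma made 0 calls among all probe sets, on 1 residual degree of freedom, while 5158, 5085 and 4967 had an unadjusted p under 0.05 without mouse 1, 2 and 3. Without mouse 1, 2 and 3 and with no block, 1, 2 and 3 member probe sets were higher, 10, 11 and 8 related ones were higher and 0, 2 and 0 lower, and of all probe sets 1114, 1176 and 1122 were higher and 761, 751 and 796 lower. Without the filter 3 member probe sets were higher, 0 related ones lower, and 1095 higher and 666 lower among all 34945. With 1 probe set a gene 1191 were higher and 864 lower among 10151 genes, so fewer could be called. Related ones lower numbered 1 with that setting, in which Sgms1 entered by 1436499_at and its lower probe set, 1426575_at, did not enter. They also numbered 1 when probe sets were averaged by gene, with the floor at log2 4 and with median centring, and the cause in these 3 was not tested. Without the replicate block and with all mice, 2329 probe sets were higher and 1876 lower, and the members called were the same 5 plus Ank. Dim signal limits Phex, Dmp1 and 2 probe sets of Smpd3.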
